A study of Mus musculus with 10 samples.

Results

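The genes described here belong to the tumor necrosis factor (TNF) superfamily, to the NF-kB pathway and to the apoptosis machinery of the mouse urinary bladder. They were chosen by gene symbol alone: TNF ligands, receptors and TNF-induced genes, TRAF adaptors, NF-kB subunits with their inhibitors and kinases, inhibitors of apoptosis (Birc), caspases and the Bcl2 family. In all, 63 of the 5030 probes of the array carry such a symbol, 62 of them with 1 gene name and 1 with 2 (Bcl2a1b and Bcl2a1a, near-identical copies). No member has more than 1 probe, so no value below is backed by an independent spot. For genes elsewhere on the array with more than 1 probe, the 33 same-gene pairs of probes correlated over the 10 arrays with a median r of 0.138 after normalization and 0.519 before it, lower than the 0.315 and 0.645 over all pairs of probes, those under background included.

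The study asked which genes induced in the inflamed bladder depend on PAR1, the thrombin receptor. Female WT (C57BL/6J) and PAR1-/- mice, enriched on the same background, received into the bladder saline, substance P (SP, a neuropeptide of sensory nerves) or LPS (lipopolysaccharide of Escherichia coli strain 055:B5, at 100 μg/ml). SP was at 10 μM on the labels of the WT arrays, at 20 μM on those of PAR1-/-, and at 10 μM throughout in the methods, so genotype and SP dose may differ together. Whole bladders were taken 4 or 24 h later (saline only at 24 h), 8 bladders were pooled per condition, and each of the 10 pools was hybridized to 1 radioactive cDNA array. A ratio between 2 arrays therefore has no replicate error, and the ratios at 4 h are also a comparison with saline at 24 h. In bulk RNA of a pool, fewer cells of a type and less RNA per cell cannot be told apart.

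TNF-family ligands on immune and stromal cells bind receptors that recruit TRAF adaptors or, for the death receptors, caspase-activating complexes. TRAF signaling activates IkB kinases, which mark the IkB inhibitors for degradation and release NF-kB dimers to the nucleus, where IkB-alpha and A20 are among the induced genes and shut the signal down again. Bcl2 relatives, Birc proteins and caspases decide whether a cell under the same signals survives or dies. In the bladder, LPS reaches this pathway through Toll-like receptor signaling.

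The promoters of 3 NF-kB target genes named by the study are shown because no ratio to saline could be given for any of them, as described below. The stretches, from RefSeq on build GRCm38.p6, are the 130 bases directly before a transcription start of the gene that has a match to the kappaB consensus. They are written 5′ to 3′ on the strand of the gene, with matches in capitals. Tnfaip3 has another start, with 0 matches in the 250 bases before it, which is not shown.
Nfkbia (IkB-alpha), chr12:55492648-55492777, minus strand: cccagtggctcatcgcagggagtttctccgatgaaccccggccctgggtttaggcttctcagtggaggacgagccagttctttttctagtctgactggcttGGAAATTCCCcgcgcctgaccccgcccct
Tnfaip3 (A20), chr10:19015411-19015540, minus strand: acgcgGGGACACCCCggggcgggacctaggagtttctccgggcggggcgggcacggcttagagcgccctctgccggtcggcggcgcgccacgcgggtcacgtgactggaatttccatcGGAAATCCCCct
Tnfaip2, chr12:111442531-111442660, plus strand: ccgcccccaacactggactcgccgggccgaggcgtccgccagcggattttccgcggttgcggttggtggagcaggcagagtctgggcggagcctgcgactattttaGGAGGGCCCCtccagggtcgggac
The kappaB consensus, a motif of 10 bases read on both strands, was found within 250 bases before a start of 11 of the 55 member genes that have a promoter in the RefSeq table (20%), and of 8.23% of all 27025 genes in it. Of these 11 genes, 8 lay under background on all arrays, as did 24 of the 61 members with intensities, and 65.1% of all probes lay above it on at least 1. Above it on at least 4 arrays lay 2 of the 11, against 22 of the 61 members and 40.7% of all probes. With 11 genes the difference was not tested. A match is a description of the letters and not a bound site.

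The deposited values are standardized for each probe. The whole-number spot intensities behind them could be recovered for 4794 probes, 61 of the 63 members among them, but not for Bcl2l10 and Nfkbib. Total intensity ran from 69106 to 275793 per array, and the background threshold of an array (3 SD above its background mode) lay between 12.6 and 31.9. On the WT 24-h LPS array, 4145 probes share a value of 15, the next value is 29 and the threshold of 31.9 rests on 12 probes, so only 12.3% of probes lay above it, against 26.3 to 45.9% on the other arrays. Arrays were normalized by robust linear regression; where 1 side of a ratio lay under background it was raised to the threshold, and the ratio is given as at least or at most. The 2 saline arrays differed by an SD of 0.462 on the log2 scale over 1031 probes, a 1.38-fold spread that includes the genotypes. F2r, the gene of PAR1, had intensities above background on 2 WT and 3 PAR1-/- arrays (195 after 4-h LPS in WT and 51 after 4-h SP in PAR1-/-). The sources used here do not place its probe relative to the disrupted part. F2r is therefore no check of the genotypes, which are those of the labels. All 6 smooth muscle probes, 4 of 5 urothelial, 10 of 16 leukocyte and 2 of 4 endothelial marker probes lay above background on at least 1 array; Trp63, Kdr and Pecam1 did on none.

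Most of these signaling genes gave weak spots. At least 1 array showed 37 of the 61 members above background (60.7%, against 65.1% of all probes), at least 4 arrays showed 22 (36.1%, against 40.7%) and all 10 arrays showed 5 (8.20%, against 10.8%). These 5 were Tnf, Fas, Tnfrsf17, Tnfaip6 and Bad. Another 24 lay under background on every array, with intensities from 7 to 27. They include Rela, the activating p65 subunit of NF-kB, Nfkbia, Nfkbie and Ikbkg of its control, Tnfaip2, the death ligands Fasl and Tnfsf10, the survival genes Bcl2, Bcl2l1 and Bcl2l2, and caspases 2, 4, 12 and 14. For them no statement on a change can be made at this sensitivity.

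**Figure D1:**
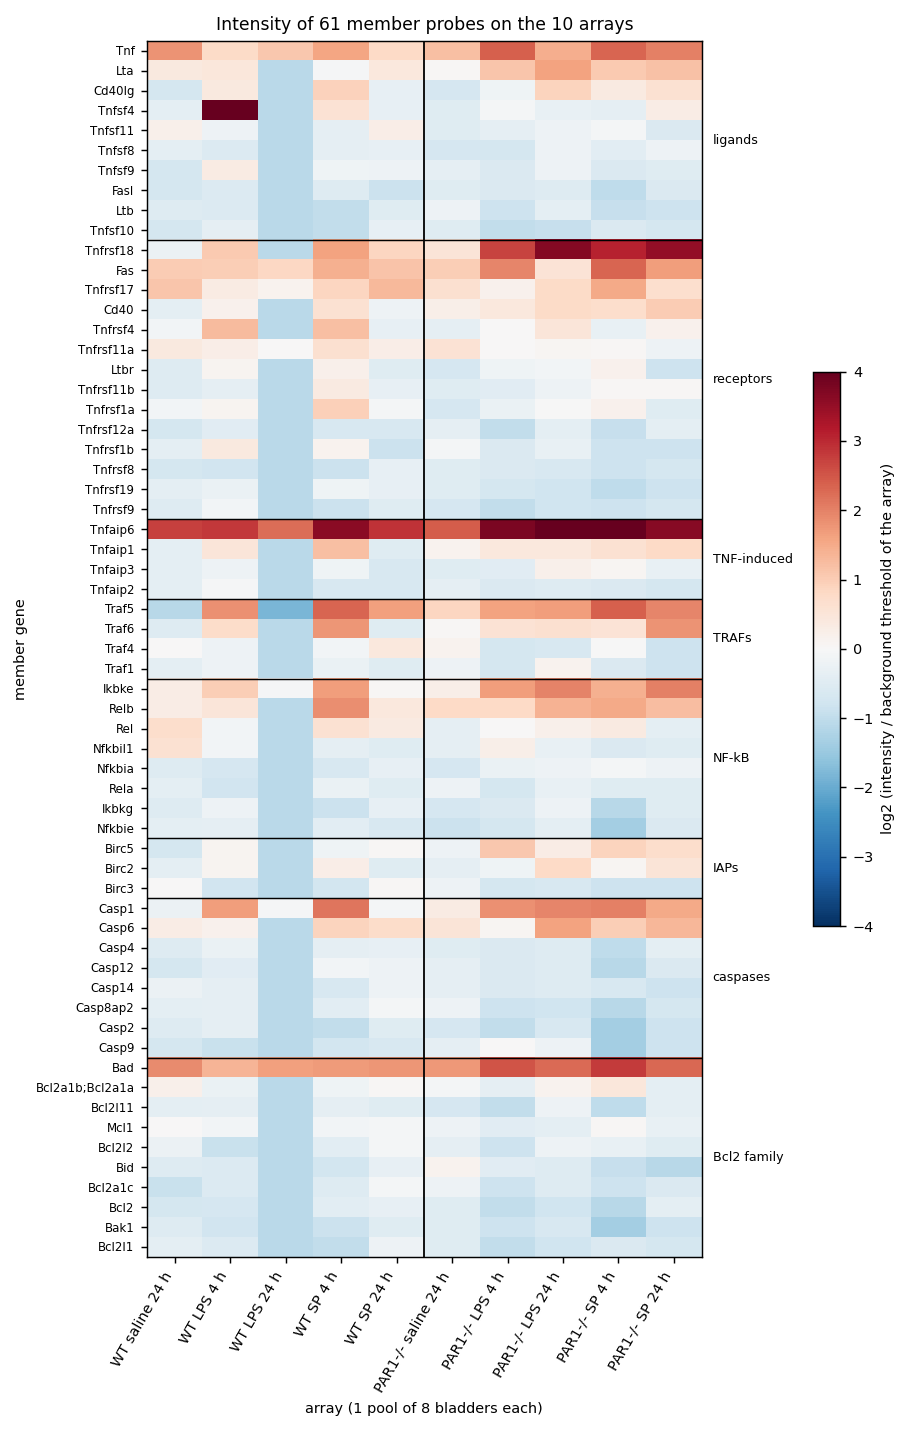
Each row is 1 of 61 member genes, grouped by role, and each column 1 of the 10 arrays; color gives the log2 of spot intensity over the background threshold of that array, before normalization (red above, blue below). Most rows are pale or blue throughout, Tnfsf4 stands out on the WT array of 4-h LPS, and the WT column of 24-h LPS is blue for all but 6 members because most of its probes hold 1 value.

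Few members passed the 3-fold criterion of the study. Over the 4 comparisons with saline, 2 of 27 members with a value exceeded 3-fold in WT bladders (Tnfsf4 and Traf5), where 7.13% of all probes did, and 1 of 21 did in PAR1-/- bladders (Tnfrsf18), where 3.23% of all probes did. Taken singly, these were 2 of 25 members after 4-h LPS in WT (5.76% of all probes), 1 of 17 after 24-h SP in WT (0.859%), 1 of 20 after 24-h LPS in PAR1-/- (1.32%) and 1 of 21 after 24-h SP in PAR1-/- (1.44%). No member exceeded 3-fold in WT after 24-h LPS (0 of 8, where 1.71% of all probes did) or 4-h SP (0 of 22, 5.03%), or in PAR1-/- after 4-h LPS (0 of 19, 1.75%) or 4-h SP (0 of 18, 1.23%). No member lay below 1/3 of its saline level in any of the 8 comparisons. Of all probes, 0.927, 0.244, 1.78 and 0.594% did so in WT at 4-h and 24-h LPS and 4-h and 24-h SP, and 1.58, 1.49, 2.10 and 1.56% in PAR1-/-. The counts are small and lie near the shares of the whole array.

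Among the ligands, Tnfsf4 (OX40 ligand, a costimulator of T cells) stood out on 1 array. Its intensity was 653 on the WT array of 4-h LPS. On the other WT arrays it was 10 after saline, 15 after 24-h LPS, 32 after 4-h SP and 10 after 24-h SP. On the PAR1-/- arrays it was 9 after saline, 17 and 14 after 4-h and 24-h LPS, and 22 and 24 after 4-h and 24-h SP. One array of 10 was thus high and the rest lay at or close to background. The normalized ratio to WT saline after 4-h LPS was at least 26.3, and the PAR1-/- over WT ratio in that condition was at most 0.0279. As this is 1 spot on 1 array, a change in the tissue and a fault of that spot cannot be told apart. Tnfrsf4, its receptor OX40, had 50 on the same array and 50 after 4-h SP in WT, against 12 after WT saline, with lower bounds on the ratio of 2.16 and 1.28.

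Tnf itself, the founding inflammatory ligand, was above background everywhere. In WT its intensity was 45 after saline, 35 and 67 after 4-h and 24-h LPS, and 65 and 22 after 4-h and 24-h SP. In PAR1-/- it was 29, 94, 47, 141 and 79 in the same order. The ranges of the genotypes overlapped. Normalized ratios to saline in WT were 0.349 and 0.738 for 4-h and 24-h LPS and 0.368 and 0.424 for 4-h and 24-h SP. In PAR1-/- they were 1.15, 0.642, 0.859 and 0.933 in the same order. Tnf was thus not above its saline level in WT on this scale; without normalization the WT ratio turned to 1.49 after 24-h LPS and 1.44 after 4-h SP, and the 4 PAR1-/- ratios ran from 1.62 to 4.86. Lta (lymphotoxin alpha) and Cd40lg were above background on 8 and 5 arrays, with no ratio or bound beyond 3-fold.

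**Figure D2:**
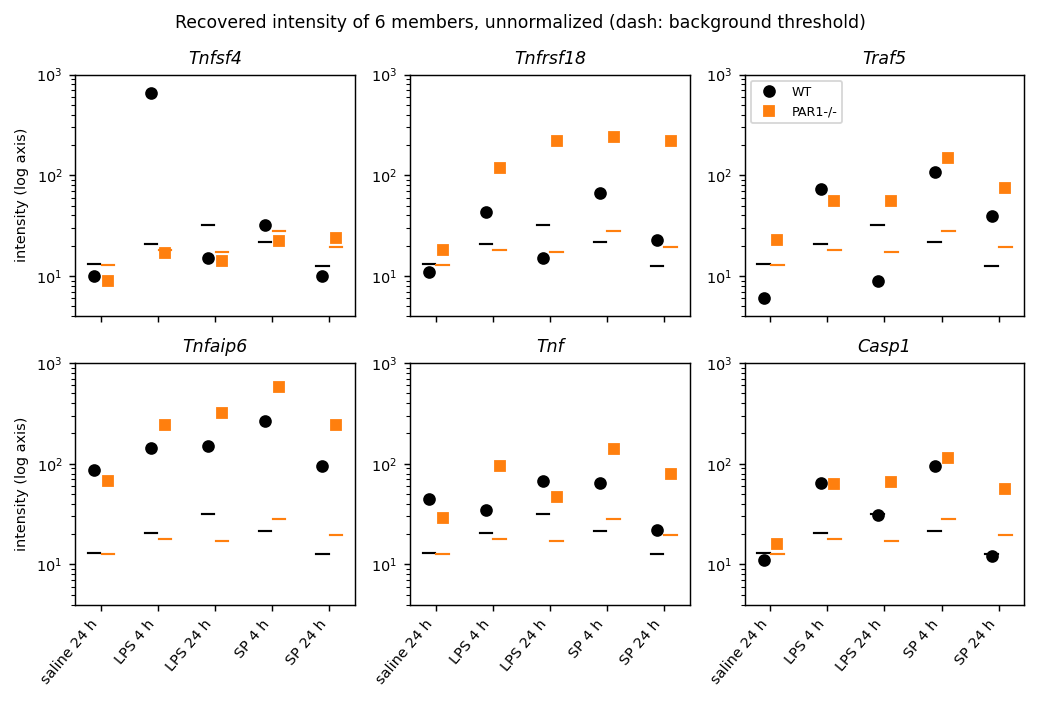
Points give the recovered, unnormalized spot intensity (log axis) of 6 members on the 5 WT arrays (black circles) and the 5 PAR1-/- arrays (orange squares), 1 array per point, and short lines give the background threshold of each array. Tnfsf4 reaches 653 on 1 WT array, Tnfrsf18 is higher in PAR1-/- in every condition, and Traf5 lies under background in WT saline (6) and WT 24-h LPS (9).

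Among the receptors, Tnfrsf18 (GITR, a costimulatory receptor of T cells and natural killer cells) had the largest genotype difference of the 22 members tested. Its intensity in PAR1-/- was 18 after saline, 117 and 221 after 4-h and 24-h LPS, and 239 and 221 after 4-h and 24-h SP. In WT it was 11, 43, 15, 66 and 23 in the same order. PAR1-/- was higher in all 5 conditions, before and after normalization, although the ranges overlapped because the PAR1-/- saline value lay within the WT range. Normalized ratios to saline in PAR1-/- were 2.53 and 4.37 for 4-h and 24-h LPS and 2.46 and 4.18 for 4-h and 24-h SP. In WT the ratio was at least 1.87 after 4-h LPS, at least 1.63 after 4-h SP and at least 1.96 after 24-h SP, and could not be given after 24-h LPS. The PAR1-/- over WT ratio was at least 1.63 for saline, 2.21 for 4-h LPS, at least 5.18 for 24-h LPS, 2.46 for 4-h SP and 3.49 for 24-h SP.

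In the fit over matched conditions (limma, n = 5 pairs of arrays), the log2 difference of Tnfrsf18 between PAR1-/- and WT was 1.77 ± 0.35 (SE), a 3.42-fold difference, with an adjusted p of 0.0517 over the 1949 probes tested. It ranked 2 of 1949 probes by p and missed the threshold. The exact two-sided permutation test over the 5 pairs gave p = 0.0625, the smallest that 5 pairs allow. Birc5, described below, gave the same p in this test, which also reads values under background as they are. Neither p is adjusted for the number of members. The fit reads values under background as they are, among them the WT values of saline and 24-h LPS. With all values under a common floor raised to it, the difference was 1.37 with an adjusted p of 0.796. The call also turns on single pairs of arrays. Without the LPS pair at 24 h the difference was 1.31 with an adjusted p of 0.691. Without the LPS pair at 4 h it was 1.93 with an adjusted p of 0.000302. The summed normalized intensity of 16 leukocyte marker probes ran from 435 to 600 in PAR1-/- and from 517 to 760 in WT. The mast cell gene Cpa3 was the 1 leukocyte marker above background on all arrays. It made up much of the sum, such as 700 of an unnormalized 1129 on the PAR1-/- array of 4-h SP. Ptprc (CD45) was above background on 4 arrays, the T cell genes Cd3d, Cd3g and Cd3e on 3, 2 and 0, and 6 of the 16 probes on none. The sum is therefore no measure of T cells. The SP dose on the labels was higher for PAR1-/-, and its part in the SP values was not tested.

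Other receptors above background on most arrays did not pass 3-fold. Fas, the death receptor, had intensities of 26, 41, 57, 58 and 28 in WT after saline, 4-h and 24-h LPS and 4-h and 24-h SP, and of 25, 69, 25, 141 and 62 in PAR1-/-. Its normalized ratios to saline lay between 0.640 and 1.18 in WT and at 1.04, 0.447, 1.03 and 0.903 in PAR1-/-, with 24-h LPS the low one. Without normalization the PAR1-/- ratios were 1.00 to 5.64. Tnfrsf17 (BCMA, a receptor of plasma cells) had 28, 26, 35, 39 and 31 in WT and 20, 20, 29, 80 and 31 in PAR1-/-, in the same order, and ratios from 0.412 to 1.12. Tnfrsf11a (RANK) was at 0.356 to 0.473 of saline, bounds included, in the 4 PAR1-/- comparisons and at 0.661 to 1.01 in WT, and without normalization its ratios ran from 0.895 to 1.53 in PAR1-/-. The TNF receptors Tnfrsf1a and Tnfrsf1b were above background on 3 and 2 arrays.

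**Figure D3:**
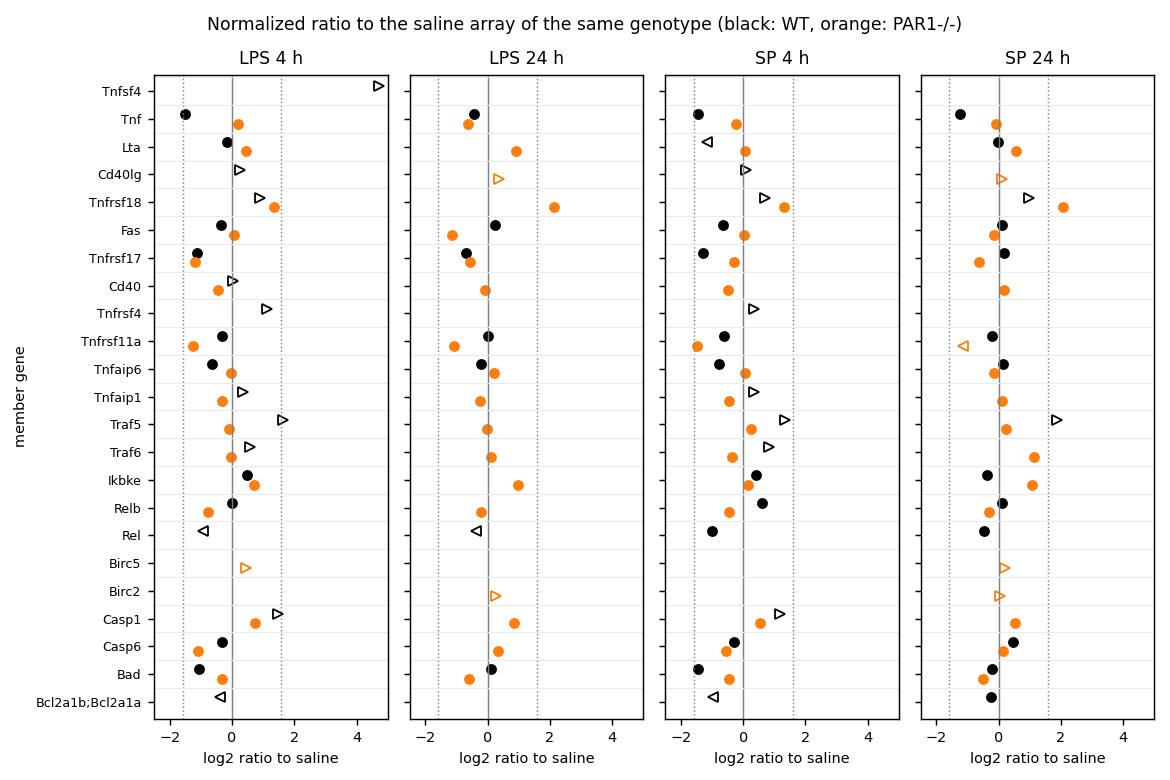
Each panel gives, for Tnfsf4 and the 22 members above background on at least 4 arrays, the log2 normalized ratio of 1 challenged array to the saline array of its genotype (black WT, orange PAR1-/-). Filled circles are ratios, open triangles are bounds pointing to where the ratio lies, dotted lines mark 3-fold, and a missing point had both sides under background or an uninformative bound; beyond the dotted lines lie only Tnfsf4 and Traf5 in WT and Tnfrsf18 in PAR1-/-.

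Of the TRAF adaptors, Traf5, an adaptor of OX40, CD40 and GITR, passed the criterion in WT. Its WT intensity was 6 after saline, 73 and 9 after 4-h and 24-h LPS, and 108 and 39 after 4-h and 24-h SP. In PAR1-/- it was 23, 55, 55, 147 and 75 in the same order. The WT ratio was at least 3.12 after 4-h LPS, at least 2.53 after 4-h SP and at least 3.65 after 24-h SP, whereas the PAR1-/- ratios lay between 0.934 and 1.19. With the arrays scaled to equal 75th percentiles Traf5 no longer passed 3-fold. The contrast rests on the WT saline spot. Its value of 6 is the lowest on that array and its 9 the lowest on the WT array of 24-h LPS, 11 probes share both, and for such probes the recovered level, and with it the bounds, may be off by a common factor. The interaction of genotype and challenge was -2.05 ± 1.33 (SE) on the log2 scale (limma, adjusted p = 1.00), so the difference between the genotypes in the response did not pass the test. Traf6, the adaptor of Toll-like receptors and CD40, had at least 1.48 and 1.79 times the saline level in WT after 4-h LPS and 4-h SP, and 2.19 times in PAR1-/- after 24-h SP.

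The NF-kB genes showed no member past 3-fold. Relb, a subunit of the alternative pathway, gave 16, 29, 15, 79 and 17 on the WT arrays of saline, 4-h LPS, 24-h LPS, 4-h SP and 24-h SP, and 22, 31, 45, 81 and 46 on the PAR1-/- arrays. Its 4-h SP value was the highest in each genotype, on the arrays that were also the brightest as a whole, and the normalized ratios were 1.50 in WT and 0.738 in PAR1-/-. Ikbke, an IkB kinase relative that also serves interferon signaling, had 16, 41, 31, 69 and 13 in WT and 15, 57, 68, 75 and 79 in PAR1-/-, in that order. Its highest ratios were 1.98 after 24-h LPS and 2.10 after 24-h SP, both in PAR1-/-. Nfkbia, whose kappaB match is printed above, lay between 8 and 27 and under background on all 10 arrays. Tnfaip3 lay between 8 and 30 and was above background on 2 PAR1-/- arrays, 24-h LPS (20) and 4-h SP (30), and Tnfaip2 lay between 8 and 20 and above it on none. No ratio to saline could be given for these 3 feedback and target genes. The study lists Nfkbia and Tnfaip3 as PAR1-dependent, that is, above 3-fold in WT and unaltered in PAR1-/-, and names Tnfaip2 in its text. It also reports Nfkbia and Tnfaip3 as raised by PAR-activating peptides in WT bladders, by Q-PCR of chromatin bound by RNA polymerase II. That is another measure and another stimulus. The spots under background can neither reproduce nor contradict these calls.

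Tnfaip6 (TSG-6, a hyaluronan-binding protein secreted in inflammation) was above background on all arrays. In WT its intensity was 86 with saline, 145 and 151 with 4-h and 24-h LPS, and 264 and 94 with 4-h and 24-h SP. In PAR1-/- it was 68, 244, 318, 575 and 245 in the same order. The unnormalized values exceeded saline on every challenged array, at 1.09 to 8.46 times, together with the arrays as a whole. After normalization the ratios were 0.589 to 1.09 in WT and 0.894 to 1.17 in PAR1-/-. The direction of this gene against saline thus depends on the scaling.

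Among the cell death genes, Casp1 (the inflammasome caspase that cleaves interleukin 1 beta) came closest to the criterion. Its WT intensity was 11 with saline, 65 and 31 with 4-h and 24-h LPS, and 95 and 12 with 4-h and 24-h SP. In PAR1-/- it was 16, 63, 66, 113 and 56 in the same order. The WT ratio was at least 2.79 with 4-h LPS and at least 2.26 with 4-h SP. The PAR1-/- ratios were 1.65 and 1.79 with 4-h and 24-h LPS and 1.47 and 1.43 with 4-h and 24-h SP. All 4 PAR1-/- ratios and both WT bounds lay above 1, and over all challenged arrays the log2 difference from saline was 0.84 ± 0.38 (SE), a 1.79-fold difference with an adjusted p of 0.574 (limma). The WT values at 24 h, 31 and 12, lay under the thresholds of their arrays.

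Bad, a pro-apoptotic Bcl2 relative, was above background on all arrays, with 48, 53, 99, 71 and 43 in WT and 42, 103, 82, 198 and 96 in PAR1-/- after saline, 4-h and 24-h LPS and 4-h and 24-h SP. Its normalized ratios were 0.483, 1.07, 0.368 and 0.867 in WT and 0.657 to 0.793 in PAR1-/-; without normalization all but 1 of the 8 ratios lay above 1. Birc5 (survivin, expressed in dividing cells) was above background on 2 WT and 4 PAR1-/- arrays. It had 8, 22, 15, 19 and 13 in WT and 11, 38, 21, 52 and 32 in PAR1-/-. The PAR1-/- over WT ratio was 1.51 for 4-h LPS, at least 1.71 for 4-h SP and 1.23 for 24-h SP, and could not be given for saline and 24-h LPS, where a value under background leaves the direction unknown. Its limma genotype difference, which reads values under background as they are, had an adjusted p of 0.460. Casp6, an executioner caspase, stayed between 0.474 and 1.38 times saline. Mcl1, Bid, Casp9 and Birc3 were each above background on 1 array.

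Across arrays no member passed an adjusted p of 0.05 in any of the 5 limma tests. Of 22 members tested, 2 had an unadjusted p under 0.05 for genotype (Tnfrsf18 and Birc5, where 10.0% of all probes did), 0 for time (7.64%), 1 for stimulus (Traf5, 2.00%), 3 for challenge (Tnfrsf18, Tnfrsf11a and Casp1, 8.57%) and 0 for the interaction (1.69%). Adjusted calls over all 1949 probes numbered 0, 4 (0.205%), 0, 1 (0.0513%) and 0 in the same order. In 16 of 22 members PAR1-/- was the higher genotype in the fit, with a median log2 difference of 0.29 against 0.13 over all probes tested. The matching share of all probes was not computed. Values under background enter as they are, and only 6 members lay above it on the WT 24-h LPS array. Several members passed the filter mainly on PAR1-/- arrays, such as Casp1, Cd40 and Traf6 (2 WT and 5 PAR1-/- arrays each). The count is therefore no support for a genotype difference. With arrays of other conditions standing in for replicates, these p-values measure the spread across conditions and not between pools of 1 condition.

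**Figure D4:**
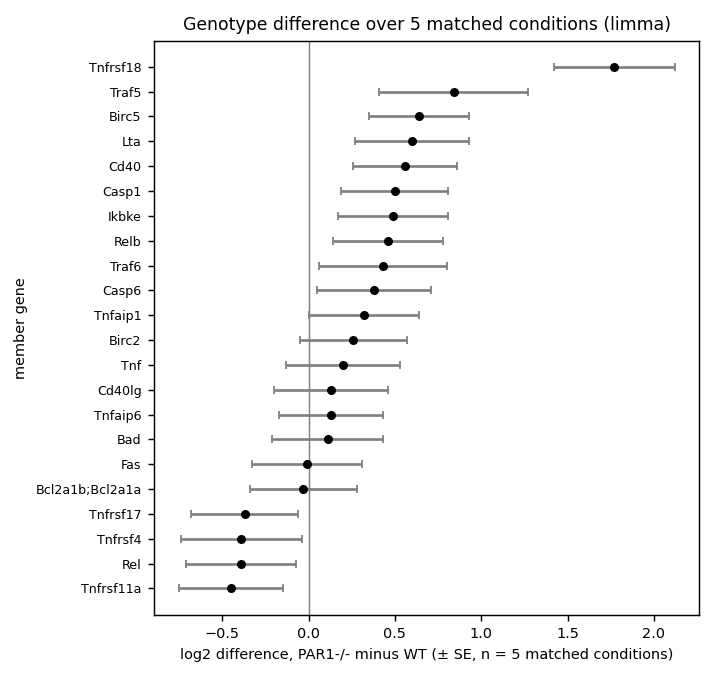
Points give the log2 difference PAR1-/- minus WT of the 22 members above background on at least 4 arrays, averaged over 5 matched conditions in the limma fit, with bars of 1 SE. Tnfrsf18 at 1.77 stands to the right of the others, which lie between -0.45 and 0.84.

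Within single conditions, the 3-fold difference between the genotypes was reached by Tnfsf4 after 4-h LPS, where PAR1-/- was the lower (1 of 25 members; 4.40% of all probes were as low), and by Tnfrsf18 after 24-h LPS (1 of 13; 2.88% as high) and 24-h SP (1 of 24; 2.06% as high). The other direction, with no member, held 0.181% of all probes at 4-h LPS, 3.88% at 24-h LPS and 1.95% at 24-h SP. No member reached it after saline (0 of 22; 0.830% of all probes were as high and 0.415% as low) or after 4-h SP (0 of 29; 0.733% and 2.28%).

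The medians of the members are given beside those of all probes with a value. The median log2 ratio to saline of the members with a value, bounds included, was -0.01 after 4-h LPS, -0.24 after 24-h LPS and -0.44 after 4-h SP in WT, against 0.18, -0.14 and 0.00 over all probes. In PAR1-/- it was -0.10, -0.05, -0.33 and 0.11 after 4-h and 24-h LPS and 4-h and 24-h SP, against -0.09, 0.01, -0.18 and -0.06 over all probes. After 24-h SP in WT both were 0.00 to the second decimal. The order of the 2 medians depends in part on the scaling: with equal 75th percentiles it was 0.31 for the members and 0.18 for all probes after 4-h LPS in PAR1-/-. Before normalization the all-probe medians of these comparisons were 0.01 to 2.16 on the log2 scale, so every ratio here is relative to that common shift.

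Neighboring genes of the pathway outside the symbol rule also held few genes past 3-fold. At least 4 arrays showed 9 of 20 adaptor and kinase probes, 14 of 33 NF-kB target probes and 14 of 29 apoptosis probes above background. The same held for 22 of the 61 members and 40.7% of all probes. All arrays showed 2 of the 20, 6 of the 33 and 8 of the 29, against 5 of the 61 members and 10.8% of all probes. These counts are small and their differences were not tested. Of 20 probes for death receptor and Toll-like receptor adaptors and kinases, 14 were above background on at least 1 array, and a ratio or bound could be given for 10 in WT and 8 in PAR1-/-. Of these, 1 exceeded 3-fold in WT (Ly96, the LPS-binding partner of TLR4, at 141 after 4-h SP against 11 after saline) and none in PAR1-/-, where the kinase gene Map3k7 (21 after saline and under background elsewhere) lay below 1/3. Of 33 NF-kB target genes outside the rule, 24 were above background on at least 1 array, and a ratio or bound could be given for 20 in WT and 15 in PAR1-/-. Lif, a cytokine of the interleukin 6 family, and Irf1, an interferon-induced transcription factor, exceeded 3-fold in WT, the chemokine gene Ccl7 lay below 1/3 there, and none passed in PAR1-/-. Lif had 1495 on the WT array of 4-h SP and 128 on that of 24-h LPS, against 7 after saline, and Irf1 had 250 after 4-h SP and 134 after 4-h LPS against 19. In WT, Ccl7 had 38 after saline, 24 and 56 after 4-h and 24-h LPS, and 23 and 27 after 4-h and 24-h SP. The study lists Ccl7 as PAR1-dependent, that is, raised in WT, and reports it as raised by PAR-activating peptides in its chromatin Q-PCR. Of 29 apoptosis genes outside the rule, 19 were above background on at least 1 array, and a ratio or bound could be given for 16 in WT and 10 in PAR1-/-. Prf1 (perforin) and Xiap exceeded 3-fold in WT and Cidea in PAR1-/-. Prf1 was above background on 1 array only, at 78 after 4-h LPS in WT. Xiap, an inhibitor of caspases, had 140 after 4-h SP in WT against 12 after saline, and Cidea had 81, 77, 199 and 96 on the challenged PAR1-/- arrays against 13. All intensities of this paragraph are unnormalized, whereas the calls rest on normalized ratios. Total intensity was 69106 on the PAR1-/- saline array and 149853 to 275793 on the challenged PAR1-/- arrays. In WT it was 71989 and 73146 to 242953. The rises over saline in these intensities thus include the brightness of the arrays as a whole. Among the marker lists, the smooth muscle actin Acta2 alone passed, above 3-fold in WT and below 1/3 in PAR1-/-; its intensity was 23 after saline and 194 after 4-h LPS in WT, and 112 after saline and 29 after 4-h SP in PAR1-/-. Of all probes with a value, 7.13% (WT) and 3.23% (PAR1-/-) passed 3-fold, and 1.90% and 3.12% lay below 1/3, in at least 1 comparison.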

How the data were processed

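The authors quantified the spots of the arrays, 1 per pool of 8 bladders, with AtlasImage 2.7. The deposited values are scores: the log2 of each has a mean of 0 and an SD of 0.333 over the 10 arrays of a probe, as read from the values. For each probe the smallest set of whole numbers (at most 3000) with these scores was taken as its intensities, provided that fewer than 0.01 chance matches were expected; this held for 4794 of 5030 probes, and 236 were left out. In a simulation of 1000 probes, drawn array by array from the recovered numbers, the search returned 99.8%, and 99.9% of those were right. A result off by a common factor was counted as right, so the simulation does not show that the level of a probe is free of such a factor. Of 1000 probes whose scores were shifted at random, 1.3% were still recovered. Background thresholds were 3 SD above the density mode. Arrays were normalized with rlm (MASS 7.3.60.0.1) on the mean of all arrays over 517 probes above background throughout. Comparisons used 3-fold ratios to the saline array of the genotype and limma 3.58.1 (R 4.3.3) on 1949 probes above background on at least 4 arrays, with Benjamini-Hochberg adjustment: genotype (blocked by condition), time, stimulus, challenge and interaction. On simulated log2 differences of 2, 97.0, 86.5, 92.0, 86.0 and 3.00% were called in that order, so the interaction test has little power. Members, lists and naming rule (members past 3-fold or a test, above background on all arrays, named by the study, or brightest of their role) were chosen with earlier results of these data known; Tnfrsf4, Tnfrsf11a, Relb, Traf6, Casp6, Lta, Cd40lg and the members named as undetected were added beyond the rule after their values were seen. All 62 single-gene symbols matched RefSeq by Entrez ID. Alternatives changed normalization, threshold, fold, reference, filter, prior variance and arrays used.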

Additional observations from a re-analysis of the deposited data

Results flagged for a closer look

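In 46 groups of 5 arrays (the 5 arrays of a genotype, for Tnfsf4 and the 22 members above background on at least 4 arrays), the highest or lowest log2 normalized intensity stood apart in 3, where its gap to the nearest array exceeded 0.71 of the log2 range; chance alone flags about 1 in 20 groups. Tnfsf4, above background on 3 arrays, did not pass the filter of 4 arrays and was added by name. Its flag is therefore not to be set against the chance rate. Values below are normalized intensities. Tnfsf4 on the WT array of 4-h LPS was at 588, against 13.0 to 19.3 on the other WT arrays. Fas on the PAR1-/- array of 24-h LPS was at 24.5, against 49.5 to 56.9 on the other PAR1-/- arrays. Tnfrsf11a on the PAR1-/- saline array was at 39.1, against 13.9 to 18.5, so all 4 of its PAR1-/- ratios to saline share that 1 high value.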

How the results depend on the processing

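With 3-fold, 2 members passed in WT and 1 in PAR1-/-. Without normalization 12 and 17 passed (38.5 and 52.9% of all probes), with equal 75th percentiles 1 (Tnfsf4) and 1 (Tnfrsf18; 11.7 and 10.5%), and at 2-fold 4 (Casp1 and Tnfrsf4 added) and 3 (Ikbke and Traf6 added; 18.5 and 11.9%). Members called in the genotype test numbered 0, but 1 (Tnfrsf18) with an intensity trend and robust prior variance, and 0 to 1 when 1 array was left out, 1 in 6 of 10 such fits. Leaving out either array of a matched pair gives the same fit, so these 10 hold 5 distinct results. The log2 difference of Tnfrsf18 was 1.31 to 1.97 (adjusted p 0.000302 to 0.691) in those fits and 0.43, on the score scale, to 3.15 (adjusted p 0.00145 to 0.796) under 9 other settings. The interaction called 0, but 2 (Rel and Tnfrsf11a) with values under a common floor raised to it, a setting chosen after seeing the data. Leaving out any 1 array gave 0 calls of members for time, stimulus and challenge. For the interaction this held for each challenged array left out. Without either saline array the interaction cannot be fitted, so its dependence on those arrays is unknown. No called value changed sign. The genotype test matches arrays by condition; without that match Tnfrsf18 had an adjusted p of 0.314. No paired analysis was possible by replicate number because each group holds 1 array. Depth limits the 24 members under background to no statement.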
